A study of Mus musculus with 5 samples.

Results

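The genes described here include the transcription factor gene Atf4 and genes of related factors and effectors. Also included are genes of serine, one-carbon, asparagine, proline and cysteine synthesis, among them known ATF4 targets, and 14 genes of cytosolic aminoacyl-tRNA synthetases. Together they are 36 of the 29495 gene symbols in the count tables of mouse glioma cells grown together with olfactory bulb neurons. Members were matched by gene symbol, and their list was chosen with earlier results of these data known. All 36 were found, 35 under the listed symbol and the methionyl-tRNA synthetase gene as Mars1. Of these, 35 passed the filter on low counts. The exception was Cbs, of cysteine synthesis, with 0 to 6 counts per library.

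The glioma cells had the genotype p53-/-;NF1-/-;tdTomato+/- in every library and derived from tumors of mice whose background mixed the CD-1 and C57BL/6 strains. The neurons came from olfactory bulbs of C57BL/6 pups at postnatal days 2 to 3. After co-culture the tumor cells were sorted on the red fluorescent protein tdTomato, and polyadenylated RNA was sequenced. The 2 control libraries (replicates 1 and 2) received no IGF-1, and the 3 IGF-1 libraries (replicates 3, 4 and 5) came from cultures kept overnight with 20 ng/mL insulin-like growth factor 1. All cultures began in a plating medium with insulin and serum, so the controls were not free of insulin-like signals. The labels do not say whether the libraries came from separate cultures or from more than 1 tumor, and p-values here reflect only how far these libraries spread.

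ATF4 is the effector of the integrated stress response. Kinases that sense amino acid shortage, unfolded protein, viral RNA or heme deficiency phosphorylate the initiation factor eIF2. General translation then slows while the Atf4 mRNA is translated more, and growth factor signals through mTORC1 are also known to raise ATF4. ATF4 pairs with other leucine zipper proteins, among them C/EBP family members, and activates genes that supply amino acids, charge tRNAs and, under lasting stress, promote cell death.

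The sequence through which ATF4 is known to act is a composite C/EBP-ATF element with the core TGATGNAA. Promoter windows from RefSeq (build GRCm38.p6, 250 bases before to 50 after each start) matched 30 of the 36 members by symbol and were searched for this core on both strands. It was present for 11 of these 30 genes (36.7%), against 1219 of all 27025 genes in the table (4.51%). The list was made to hold known ATF4 targets, so these shares describe it and test nothing. The matches before the start are printed because they show the element shared by genes of different pathways. Each line runs 5′ to 3′ on the strand of the gene, with 30 bases on either side where these lie before the start, and capitals mark the core or its reverse complement TTNCATCA.
Chac1: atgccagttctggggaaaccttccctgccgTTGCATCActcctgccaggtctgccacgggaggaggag
Nupr1: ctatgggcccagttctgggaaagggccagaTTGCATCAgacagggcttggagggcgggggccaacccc
Vldlr: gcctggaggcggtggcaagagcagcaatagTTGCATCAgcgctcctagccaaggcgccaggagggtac
Asns: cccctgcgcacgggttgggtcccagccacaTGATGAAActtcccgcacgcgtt
Pycr1: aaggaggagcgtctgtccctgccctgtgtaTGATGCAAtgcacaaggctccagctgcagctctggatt
Aars: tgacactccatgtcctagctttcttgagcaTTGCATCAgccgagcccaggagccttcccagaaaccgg
Gars: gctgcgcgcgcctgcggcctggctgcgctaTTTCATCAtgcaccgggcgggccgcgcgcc
Tars: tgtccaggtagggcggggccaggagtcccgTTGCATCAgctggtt
These stretches lie just upstream of annotated transcription starts. Their positions in GRCm38.p6 are chr2:119351019-119351086 for Chac1 (+ strand), chr7:126625543-126625610 for Nupr1 (- strand), chr19:27216790-27216857 for a second start of Vldlr (+ strand) and chr6:7693210-7693262 for Asns (- strand). Pycr1 is at chr11:120643814-120643881 (- strand), Aars at chr8:111033700-111033767 (+ strand), Gars at chr6:55037941-55038000 (+ strand) and Tars at chr15:11399659-11399703 (- strand). Chac1, Nupr1, Vldlr, Aars and Tars carry the same letters TTGCATCA. Asns carries TGATGAAA, Pycr1 TGATGCAA and Gars TTTCATCA. In Trib3, Iars and Yars, and a second time in Aars, the core overlapped or followed the annotated start. Windows of the 8 serine and one-carbon members held no match. A match is a description of these letters and not evidence of binding.

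Libraries held 16944315 to 20144181 counts. IGF-1 replicate 5 stood apart: over genes with a mean of at least 10 CPM (CPM is counts scaled to library size by TMM factors), the SD of its log2 difference from the other 4 libraries was 0.22 to 0.27, against 0.11 between replicates 3 and 4 and 0.12 between the controls. Cytosolic ribosomal protein genes took 3.86% to 4.14% of counts in the other libraries and 3.05% in replicate 5 (Wilson 95% interval 3.04% to 3.06%, counting error only). The glial progenitor markers Pdgfra, Cspg4, Olig1, Olig2, Sox10, Ptprz1, Nes and Vim all had counts in every library, summing to 6605 to 7060 CPM and to 7883 CPM in replicate 5 (without scaling factors). Of 12 neuronal markers 11 were in the tables, with a sum of 8.98 to 9.77 CPM and of 15.8 CPM in replicate 5, where 3 were at 0, among them Rbfox3, which had 0 to 1 counts per library. The excess lay in Syt1, a synaptic vesicle gene, with 81 to 105 counts in the other libraries and 232 in replicate 5. The other 10 neuronal markers summed to 3.54 to 4.32 CPM in the other libraries and to 4.32 CPM in replicate 5. Summed markers of microglia (7 of 8 in the tables) were at 3.74 to 4.78 CPM. Those of endothelial and mural cells (6 of 7) were at 8.12 to 10.9 CPM in the other libraries and at 6.30 CPM in replicate 5. Those of fibroblasts and ensheathing cells (7 of 7) were at 10.5 to 14.03 CPM and of astrocytes (6 of 6) at 247 to 279 CPM. The part of these differences in the results below was not tested. Most results are therefore given for replicates 3 and 4 and for replicate 5 separately, and some only as ranges over libraries or genes.

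With all 5 libraries, none of the members passed the test for a difference with IGF-1. EdgeR's quasi-likelihood test called 0 of 35 tested members higher and 0 lower at an adjusted p under 0.05 (Benjamini-Hochberg over 15919 genes), where 0.685% of all genes were higher and 0.339% lower. Before adjustment 1 member, Cebpb, had a p under 0.05 and was higher, and 0 were lower, against 7.1% and 5.57% of all genes. DESeq2 also called 0 members, where it called 1.6% of genes higher and 0.747% lower, and limma-voom called 0. Without the filter on low counts edgeR called 2 members, Cebpb higher (adjusted p = 5.81e-07) and Phgdh lower (adjusted p = 0.0308). The log2 fold changes had a median of -0.12 over members and -0.01 over all genes tested, and members' adjusted p ran from 0.246 to 0.995.

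The 3 IGF-1 libraries did not behave alike. Members took 0.676% and 0.680% of all counts in the controls, 0.689% and 0.715% in IGF-1 replicates 3 and 4, and 0.517% in replicate 5. The 95% Wilson intervals, which cover counting error only, were 0.672% to 0.680% and 0.676% to 0.684% for the controls, 0.685% to 0.693% and 0.711% to 0.718% for replicates 3 and 4, and 0.513% to 0.520% for replicate 5. In a sorted bulk sample, fewer cells with a transcript and less of it per cell cannot be told apart. The median log2 ratio of members to the control mean came to 0.03 for IGF-1 replicate 3, 0.06 for replicate 4 and -0.43 for replicate 5, while over all genes tested it was -0.01 in each. Replicate 5 was the lowest of the 5 libraries for 32 of 35 members, against 29.3% of all genes. The 3 exceptions were Cebpb, Cebpg and Shmt1.

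**Figure D1:**
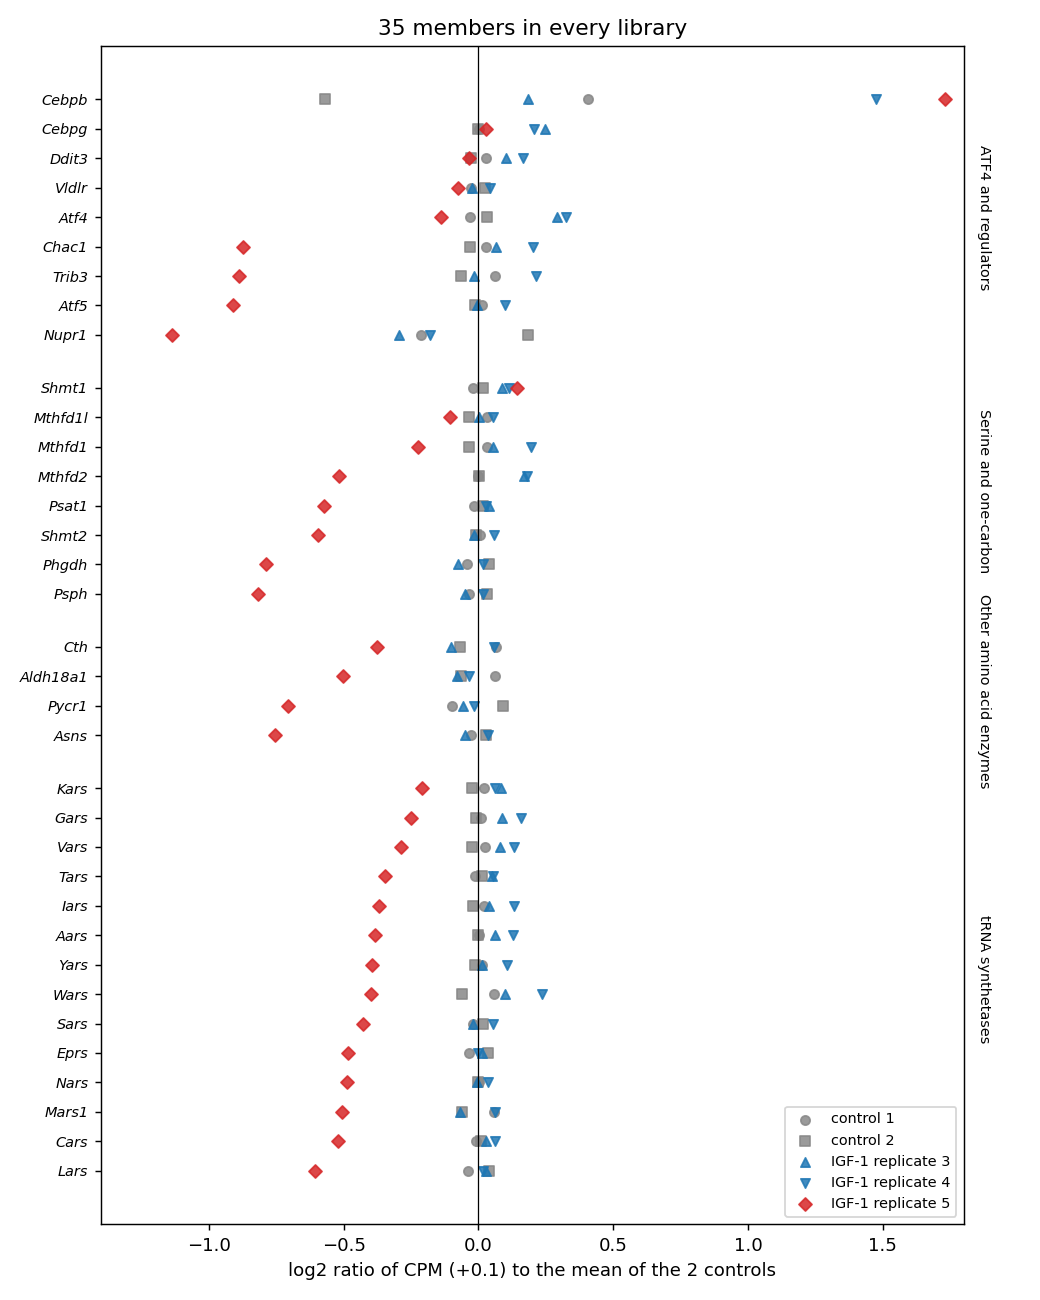
Each row is 1 of 35 tested members and each symbol 1 library; the x axis is the log2 ratio of CPM (plus 0.1) to the mean of the 2 controls. Controls and IGF-1 replicates 3 and 4 lie near 0, with Atf4, Cebpg, Cebpb and Nupr1 farther out, and replicate 5 lies to the left for 32 members.

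Atf4 itself was at 262 and 274 CPM in the controls, 329 and 336 CPM in IGF-1 replicates 3 and 4, and 243 CPM in replicate 5. The IGF-1 libraries thus lay on both sides of the controls. In the test with all libraries its log2 fold change was 0.17 (SE 0.12, adjusted p = 0.593). Without replicate 5, edgeR gave a rise of 0.31 (SE 0.04, adjusted p = 1.78e-09). That fit leaves out the library that stood apart. Its SE and p-values, here and below, therefore do not reflect the spread that replicate 5 adds and may be too small.

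Of the tested members, Cebpg and Cebpb were, like Shmt1, not at their lowest in replicate 5. Cebpg, which encodes C/EBP gamma, was at 84.0 and 83.9 CPM in the controls, 99.5 and 96.9 in replicates 3 and 4, and 85.5 in replicate 5. All IGF-1 libraries were above both controls, replicate 5 by little. Its log2 fold change was 0.16 (SE 0.08, adjusted p = 0.415) with all libraries, and it rose by 0.23 (SE 0.05, adjusted p = 0.00192) without replicate 5. Cebpb, which encodes C/EBP beta, was scarce, at 3.81 and 1.89 CPM in the controls and 3.25, 8.10 and 9.69 CPM in IGF-1 replicates 3, 4 and 5. Its controls differed by 0.98 on the log2 scale, and replicate 3 lay between them, while replicates 4 and 5 were highest. The log2 fold change was 1.30 (SE 0.44, adjusted p = 0.246), or 1.00 (SE 0.25, adjusted p = 0.00391) without replicate 5.

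Atf5, a leucine zipper factor whose mRNA is translated under the same stress, was at 87.3 and 85.8 CPM in the controls, 86.1 and 92.8 in replicates 3 and 4, and 46.1 in replicate 5. Ddit3, which encodes the stress factor CHOP, was at 30.8 and 29.6 CPM, then 32.4, 33.8 and 29.4 CPM. Replicate 5 was 1.94-fold below the mean of replicates 3 and 4 for Atf5 and 1.13-fold below it for Ddit3. Neither gene passed the test, with log2 fold changes of -0.21 and 0.08 with all libraries (adjusted p = 0.74 and 0.759) and of 0.05 and 0.13 without replicate 5 (adjusted p = 0.7 and 0.38).

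The effectors Trib3, Chac1 and Nupr1 showed some of the widest gaps between IGF-1 libraries. Trib3, a pseudokinase that dampens ATF4 and AKT signalling, was at 36.9 and 33.8 CPM in the controls, 34.9 and 41.0 in replicates 3 and 4, and 19.04 in replicate 5. Chac1, which breaks down glutathione, was at 20.5 and 19.7 CPM, then 21.0, 23.1 and 10.9 CPM. Nupr1, a small stress-induced chromatin protein gene, was at 9.58 and 12.6 CPM, then 9.03, 9.79 and 4.99 CPM. For all 3 genes replicate 5 was the lowest library, 1.99-fold, 2.01-fold and 1.87-fold below the mean of replicates 3 and 4, whereas replicates 3 and 4 lay within or near the span of the controls. None was called with or without replicate 5. Vldlr, the very low density lipoprotein receptor gene, was nearly level, between 108 and 117 CPM in all libraries.

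**Figure D2:**
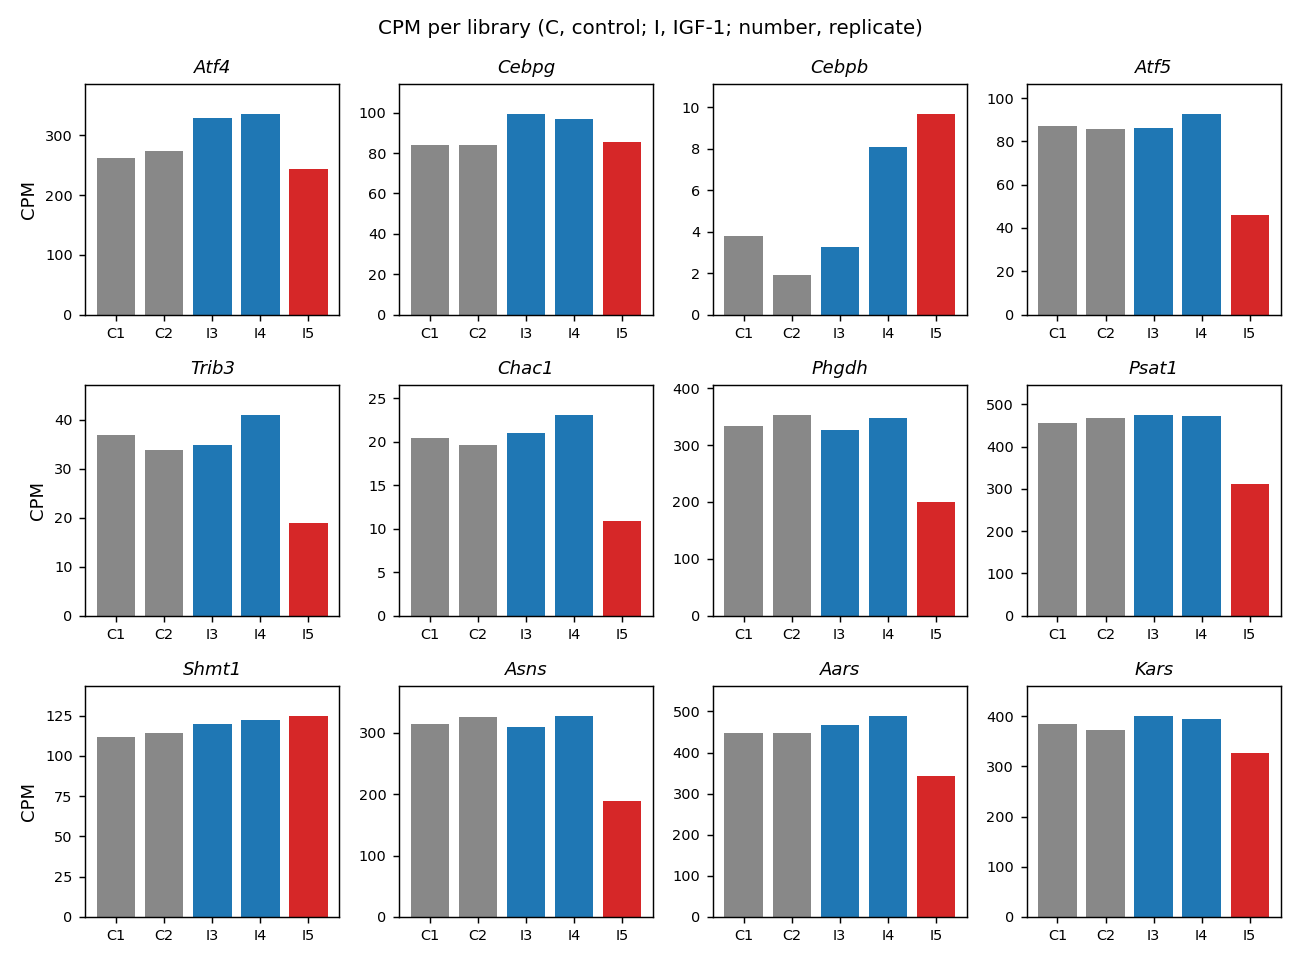
Bars give the CPM of 12 members in each library on a linear axis from 0, with controls in grey, IGF-1 replicates 3 and 4 in blue and replicate 5 in red. Atf4 is higher in replicates 3 and 4 than in the other 3 libraries, Atf5, Trib3, Chac1, Phgdh and Asns are low in replicate 5, and Shmt1, Cebpg and Cebpb are not.

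The enzymes that make serine from glycolytic intermediates were abundant and low in replicate 5. Per kilobase of transcript, Phgdh (181 CPM per kb) and Psat1 (177 CPM per kb) had the highest levels of all members in the controls. Phgdh, the entry enzyme of the pathway, was at 334 and 353 CPM in the controls, 326 and 347 in replicates 3 and 4, and 199 in replicate 5. Psat1, the aminotransferase of the next step, was at 457 and 468 CPM, then 475, 472 and 311 CPM. Psph, the phosphatase of the last step, was at 82.1 and 86.0 CPM, then 81.2, 85.2 and 47.6 CPM. The log2 ratio of these 3 enzymes to the control mean was -0.07 to 0.04 in replicates 3 and 4 and -0.82 to -0.57 in replicate 5. The log2 fold changes without replicate 5 were -0.03 for Phgdh, 0.03 for Psat1 and -0.02 for Psph (adjusted p = 0.767, 0.671 and 0.928).

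One-carbon enzymes exist as mitochondrial and cytosolic counterparts, and the genes of neither compartment moved as a block in replicate 5. Shmt2, the mitochondrial serine hydroxymethyltransferase, was at 246 and 243 CPM in the controls, 242 and 255 in replicates 3 and 4, and 162 in replicate 5. Shmt1, the cytosolic form, was at 111 and 114 CPM, then 119.97, 122 and 125 CPM. Shmt1 was the only member besides Cebpg whose IGF-1 libraries all lay above both controls, a pattern found in 16.2% of all genes, and it did not pass the test (log2 0.12, SE 0.06, adjusted p = 0.461; 0.10 without replicate 5, adjusted p = 0.222).

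Mthfd2, the mitochondrial methylenetetrahydrofolate dehydrogenase, was at 112 CPM in both controls, 126 and 127 in replicates 3 and 4, and 78.1 in replicate 5. It rose by 0.17 (SE 0.05, adjusted p = 0.0114) without replicate 5, against -0.02 (SE 0.17, adjusted p = 0.971) with it. Replicates 3 and 4 were above both controls and replicate 5 far below them. Mthfd1, the cytosolic enzyme of the same steps, was at 89.6 and 85.5 CPM, then 91.0, 100.2 and 74.9 CPM. Mthfd1l, which completes the mitochondrial route to formate, ranged from 147 to 164 CPM and was lowest in replicate 5. Relative to the mean of replicates 3 and 4, replicate 5 was at -0.69 on the log2 scale for Mthfd2, -0.35 for Mthfd1 and -0.14 for Mthfd1l.

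Asns, which makes asparagine and is a classical ATF4 target, was at 314 and 326 CPM in the controls, 309 and 327 in replicates 3 and 4, and 189.6 in replicate 5. Of the proline synthesis genes, Aldh18a1 was at 165 and 152 CPM, then 150.1, 155 and 112 CPM. Pycr1, of the last step to proline, was at 25.9 and 29.4 CPM, then 26.6, 27.3 and 16.9 CPM. In these genes replicates 3 and 4 lay within or close to the controls, and replicate 5 was 1.36-fold to 1.68-fold below the mean of replicates 3 and 4. Cth, which makes cysteine, was scarce, at 2.99 to 4.10 CPM. Cbs had 1 count in each control and 0, 4 and 6 in the IGF-1 libraries; the count of 0 allows up to 0.163 CPM.

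The 14 synthetase genes, which attach amino acids to their tRNAs, were all lowest in replicate 5, at log2 ratios to the control mean of -0.21 (Kars) to -0.60 (Lars). In replicate 4, 13 of 14 were above the control mean, and in replicate 3, 11 of 14, with medians of 0.06 and 0.03. Eprs, for glutamate and proline, was at 477 and 502 CPM in the controls, 495 and 489 in replicates 3 and 4, and 349.9 in replicate 5. Aars, for alanine, was at 447 CPM in both controls, then 467, 489 and 342 CPM. Lars, for leucine, was at 261 and 276 CPM, then 274, 271 and 176 CPM. Kars, for lysine, was at 384 and 372 CPM, then 400.3, 394 and 326 CPM. In each of these 4 genes the controls and replicates 3 and 4 lay close together and replicate 5 lay below all of them.

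Without replicate 5, 2 synthetase genes rose. Gars, for glycine, was at 382 and 378 CPM in the controls, 404 and 424 in replicates 3 and 4, and 319.6 in replicate 5. It rose by 0.12 (SE 0.04, adjusted p = 0.0205) without replicate 5 and was at 0.01 (SE 0.10, adjusted p = 0.983) with it. Wars, for tryptophan, was at 103 and 95.2 CPM, then 106, 117 and 75.4 CPM, and rose by 0.17 (SE 0.05, adjusted p = 0.0265) without replicate 5. In both genes replicates 3 and 4 were above both controls and replicate 5 was below them. The other 12 synthetase genes were not called, Aars and Vars with adjusted p of 0.0804 and 0.0914. Without replicate 5 the 12 lay between -0.003 (Mars1) and 0.11 (Vars), and 3 of them, Aars, Iars and Vars, had an unadjusted p under 0.05.

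In all, the comparison of IGF-1 replicates 3 and 4 with the controls called 6 of 35 members higher (Atf4, Cebpb, Cebpg, Mthfd2, Gars and Wars) and 0 lower by edgeR, where 5.49% of all 15573 genes tested were higher and 3.65% lower. Before adjustment 11 members were higher and 0 lower, against 11.6% and 9.64% of all genes. Both replicates lay above both controls for 16 members and below both for 0, where 23.8% and 24.5% of all genes did so. The median log2 fold change of members was 0.05 there and -0.01 over all genes tested. The rises other than that of Cebpb were small, at 0.12 to 0.31.

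**Figure D3:**
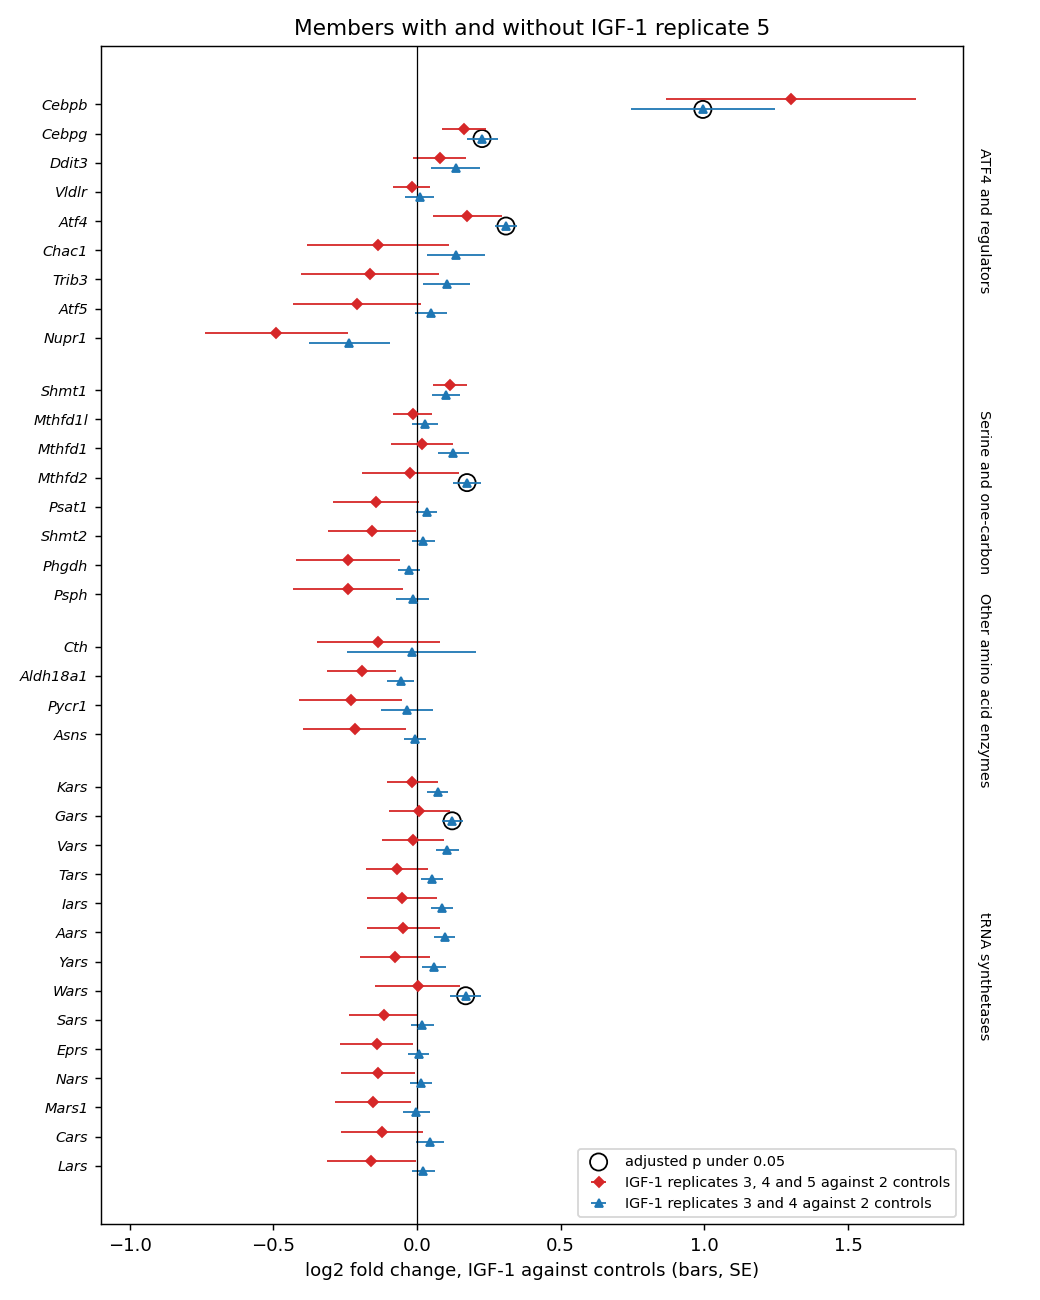
Symbols give the log2 fold change of each of 35 members and bars its SE, in red for all 3 IGF-1 libraries and in blue for replicates 3 and 4, both against the 2 controls. Without replicate 5 the SE shrinks for most members and most values move to the right. The 6 circled members pass an adjusted p of 0.05 there, while none does with all libraries.

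Set directly against replicates 3 and 4, replicate 5 was lower in most members. It was at least 1.25-fold below the mean of replicates 3 and 4 in 28 of 35 members, against 12.5% of all genes, and at least 1.25-fold above it in 1, Cebpb, against 14.3%. Kars, at 1.22-fold, lay just outside this bound and Mthfd1, at 1.277-fold, just inside. The median log2 difference was -0.61 in the serine and one-carbon genes, -0.56 in the other amino acid enzymes, -0.47 in the synthetases, -0.45 in Atf4 and its partners and effectors, and 0.00 over all genes tested. A single library gives no test of this difference. With RLE factors the count was 28 and with total counts alone 27. When a smooth of the difference on transcript length over all genes was taken off, it was 27, and the median over members was -0.50.

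**Figure D4:**
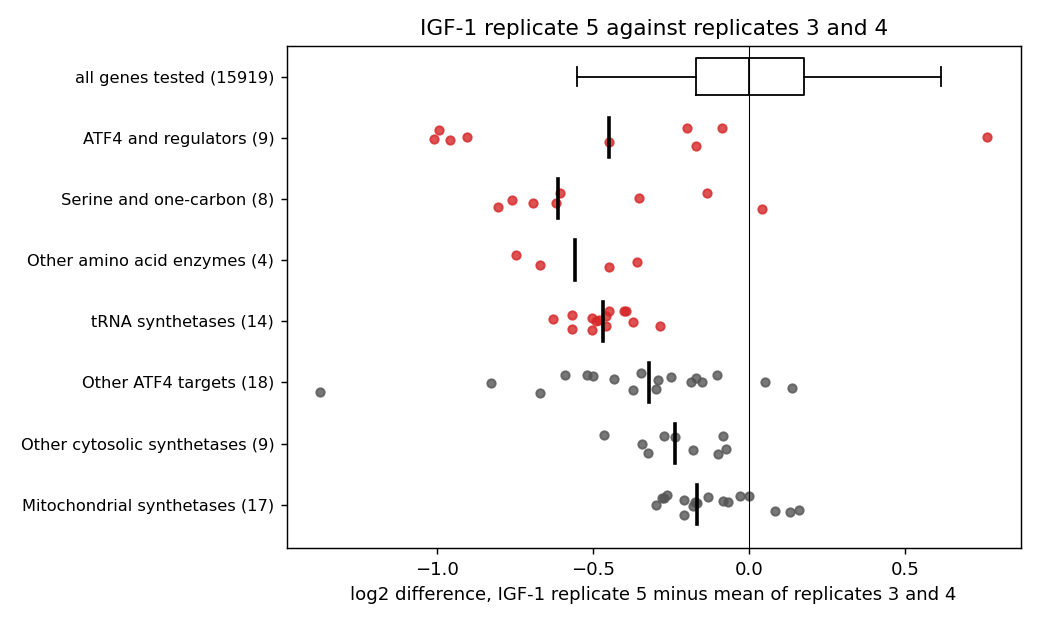
The x axis is the log2 difference between IGF-1 replicate 5 and the mean of replicates 3 and 4, with 1 point per gene, black bars at medians, and a box (quartiles, whiskers at the 5th and 95th percentiles) for all 15919 genes tested. Of the members (red), only Cebpb and Shmt1 lie above 0, and the mitochondrial synthetases lie closer to 0 than the 14 cytosolic ones.

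Other genes of the pathway were read from fixed lists. Among 14 genes of the eIF2 kinases and of the control of eIF2, edgeR called 0 with all libraries, 0 also unadjusted and by DESeq2. Without replicate 5, 2 of the 14 rose and 0 fell, where 5.49% of all genes rose and 3.65% fell. The 2 were the eIF2 phosphatase subunit genes Ppp1r15a (0.31, adjusted p = 0.0436) and Ppp1r15b (0.15, adjusted p = 0.0187). Ppp1r15a was at 20.5 and 16.4 CPM in the controls, 23.2 and 22.6 in replicates 3 and 4, and 16.3 in replicate 5. Ppp1r15b was at 173 and 175 CPM, then 194, 191 and 167 CPM. Of the 14 genes, 2 were at least 1.25-fold below in replicate 5, a share near the 12.5% of all genes. Replicate 5 was the lowest library for 9 of the 14, against 29.3% of all genes, and the highest for 4, against 28.1%. The 4 were the kinase genes Eif2ak1, Eif2ak2, Eif2ak3 and Eif2ak4. The median log2 difference from replicates 3 and 4 over the list was -0.21.

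Of 20 further ATF4 targets, among them Nars2 that the list of mitochondrial synthetases also holds, 18 were tested, and edgeR and DESeq2 called 0 with all libraries (1 higher and 1 lower unadjusted). Where 5.49% of all genes rose and 3.65% fell without replicate 5, 4 of these 18 rose and 0 fell. These were Atf3, a stress-induced leucine zipper factor (0.51, adjusted p = 0.00719), Sesn2, a leucine sensor of the mTORC1 pathway (0.32, adjusted p = 0.00185), and the amino acid transporter genes Slc7a5 (0.13, adjusted p = 0.0213) and Slc7a1 (0.19, adjusted p = 3.79e-04). Sesn2 was at 39.9 and 37.7 CPM in the controls, 46.1 and 50.6 in replicates 3 and 4, and 30.3 in replicate 5. Atf3 was at 10.4 and 8.79 CPM in the controls, then 11.8, 15.5 and 10.7 CPM. It was the 1 of the 18 whose IGF-1 libraries all lay above both controls, against 16.2% of all genes. In replicate 5, Slc7a5 (301 CPM) and Slc7a1 (282 CPM) were below both controls. In this list 9 of 18 genes were at least 1.25-fold below in replicate 5, against 12.5% of all genes. Slc7a11, the cystine transporter gene, and Eif4ebp1, a translation inhibitor gene, were picked after their values were seen as the list's lowest. Slc7a11 was at 12.8 and 16.1 CPM in the controls, 15.5 and 15.2 in replicates 3 and 4 and 5.87 in replicate 5, and Eif4ebp1 at 116 and 110.2, then 115, 116 and 65.0 CPM.

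The mitochondrial synthetases lay closer to the other IGF-1 libraries in replicate 5. There, 0 of 17 were at least 1.25-fold below replicates 3 and 4, against 12.5% of all genes. The count was 13 of the 14 cytosolic members and 3 of the 9 remaining cytosolic synthetase and scaffold genes. The medians of the 3 lists were -0.17, -0.47 and -0.24 on the log2 scale, and the difference between these lists was not tested. With RLE factors the 3 of 9 became 2 and with total counts 1, while the 0 and the 13 stayed. After the smooth on transcript length the counts were 2 of 17, 13 of 14 and 1 of 9. The core TGATGNAA was found in 0 of 14 mitochondrial synthetase genes in the promoter table, 0 of the 7 remaining cytosolic genes and 5 of the 9 cytosolic members. EdgeR called 0 mitochondrial synthetases with all libraries (1 higher and 1 lower unadjusted), and DESeq2 called Mars2, for methionine, higher (adjusted p = 0.0211). Mars2 was at 35.95 and 35.1 CPM in the controls and 49.6, 42.6 and 50.5 CPM with IGF-1, so its groups did not overlap. All IGF-1 libraries lay above both controls in 16.2% of all genes. Without replicate 5, Mars2 (0.37, adjusted p = 3.38e-04), Yars2, for tyrosine (0.32, adjusted p = 0.0362), and the cytosolic Farsa, for phenylalanine (0.15, adjusted p = 0.0446), rose. These were 2 of 17 mitochondrial and 1 of 9 remaining cytosolic genes, where 5.49% of all genes rose in that fit.

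Further genes of folate, glycine and methionine metabolism gave 0 calls among 16 tested with all libraries by edgeR (2 higher and 2 lower unadjusted). DESeq2 called Mat2a, which makes the methyl donor S-adenosylmethionine, higher (adjusted p = 0.0294). Mat2a was at 385 and 394 CPM in the controls and 469, 458 and 471 CPM with IGF-1, and replicate 5 was level with the other IGF-1 libraries. It rose by 0.25 (adjusted p = 1.44e-07) without replicate 5, 1 of the 16 to rise, where 5.49% of all genes rose. Of 11 genes of proline, glutamate and aspartate metabolism, edgeR and DESeq2 called 0 with all libraries (0 higher and 1 lower unadjusted). Glul, the glutamine synthetase gene, fell by 0.22 (adjusted p = 4.97e-05) without replicate 5. It was 1 of the 11 to fall, where 3.65% of all genes fell. Glul was at 266 and 250.4 CPM in the controls and 218, 225 and 215 CPM with IGF-1, so all IGF-1 libraries were below both controls. The same pattern was found in 16.9% of all genes. Replicate 5 was at least 1.25-fold below in 5 of these 16 and 3 of these 11 genes, against 12.5% of all genes. With total counts alone the 5 became 3 and the 3 stayed. It was the lowest library in 11 of the 16 and 9 of the 11, against 29.3% of all genes.

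The gap in replicate 5 was also read by promoter core. The median log2 difference from replicates 3 and 4 was -0.48 for the 11 members with the core (-1.01 in Chac1 to -0.09 in Vldlr). It was -0.45 for the 18 tested members whose windows held no match (-0.96 in Atf5 to 0.76 in Cebpb). Phgdh, Psat1 and Psph, among the members with wide gaps, had no match in these windows.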

How the data were processed

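RNA-seq read counts of 5 libraries (2 co-culture controls, 3 with IGF-1) were analysed. The deposited values are raw counts per gene symbol, 1 table per library. The submitters' processing notes name build GRCm39, featureCounts 2.0.1, STAR 2.7.9a, DESeq2 1.28.1 and cutadapt 3.4. Their settings, the annotation, and the use of strand and multiply mapped reads are not given in the sources used here, so reads of overlapping genes and pseudogenes could be shared.

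Groups came from the titles. The main test was that of edgeR 4.0.16 (R 4.3.3): filterByExpr (minimum count 10, minimum total count 15), TMM factors, quasi-likelihood F-test (two-sided), Benjamini-Hochberg adjustment over all genes tested. The SE is the log2 fold change divided by the square root of F. Log2 ratios of single libraries use CPM plus 0.1. Alternatives were RLE factors, total counts, no filter, DESeq2 1.42.0, limma-voom (limma 3.58.1) and each library left out, and, chosen after seeing the data, a lowess smooth (span 0.3) on transcript length. Lengths are of principal transcripts in GENCODE M21 (GRCm38), matched by symbol for 98.9% of genes tested. Promoter sequences are RefSeq's (GRCm38.p6), and no coordinate was carried between builds. The procedure was tested on simulated data. The simulated libraries shared a common spread and none stood apart as IGF-1 replicate 5 did, so error rates under that unevenness were not tested.

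All 36 members are accounted for. From the other lists, genes past the threshold with or without IGF-1 replicate 5 are named, except 1 that is not reported here. The members and lists were chosen with earlier results of these data known.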

Additional observations from a re-analysis of the deposited data

How the results depend on the processing

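Leaving out each library in turn moved the count of all genes called from 109 higher and 54 lower to between 0 and 855 higher and between 2 and 569 lower. The upper ends are without IGF-1 replicate 5, and the lower ends without either control. Members called ranged from 0 to 6 higher, the 6 being without IGF-1 replicate 5, with 0 to 0 lower. DESeq2 called 191 genes higher and 89 lower. Without the low-count filter 385 were higher and 221 lower, among them 1 member higher and 1 lower. RLE factors, total counts and limma-voom stayed within 1.5 times of the counts over all genes, and they and DESeq2 called 0 members. The members' median log2 fold change, -0.12, ranged from -0.21 to 0.05 over libraries left out. The sign changes here are of values that missed the threshold with all libraries. Over libraries left out, Atf5 ranged from -0.39 to 0.048, Trib3 from -0.40 to 0.10, Chac1 from -0.34 to 0.13, Vldlr from -0.050 to 0.0096, Psat1 from -0.24 to 0.033, Shmt2 from -0.28 to 0.022, Mthfd1 from -0.079 to 0.13, Mthfd2 from -0.14 to 0.17, Mthfd1l from -0.051 to 0.029, Aars from -0.14 to 0.096, Cars from -0.22 to 0.044, Eprs from -0.22 to 0.0061, Gars from -0.072 to 0.12, Iars from -0.15 to 0.086, Kars from -0.066 to 0.073, Lars from -0.26 to 0.022, Nars from -0.23 to 0.015, Sars from -0.21 to 0.019, Tars from -0.14 to 0.052, Vars from -0.091 to 0.11, Wars from -0.13 to 0.17 and Yars from -0.18 to 0.061. The upper value was without IGF-1 replicate 5 in each. With limma-voom Gars was at -0.0019 and Wars at -0.023, and with total counts alone Wars was at -3.3e-05. The count of members at least 1.25-fold below in IGF-1 replicate 5, 28, was 28 with RLE factors, 27 with total counts and 27 after the smooth on transcript length. No paired analysis was possible because the control and IGF-1 libraries share no replicate number. With 1 control left out, the spread of the lone control is taken from the IGF-1 libraries. Depth limits Cbs and Cth, with 0 to 77 counts.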
